A study of Mus musculus with 7 samples.

Results

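HDAC1 binding was examined at 9 genes that pattern the dorsoventral axis of the limb bud or build its apical ectodermal ridge, the signalling epithelium at the limb tip. The genes were Lmx1b, Lhx2 and Lhx9, taken as mesenchymal, En1, Wnt7a, Sp6, Sp8 and Trp63, taken as ectodermal, and Ldb1, a cofactor of the mesenchymal proteins. An HDAC1 peak was assigned to a gene when it overlapped, by at least 1 bp, the GENCODE gene body in mm10 with 20 kb added on each side, which is called the window of the gene. By this rule 36 of the 15347 listed peaks fell in the 9 windows, 20 of them at mesenchymal genes, 13 at ectodermal genes and 3 at Ldb1. The rule used position alone, and the values were compared with the same values over 21938 protein-coding genes.

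The peaks came from ChIP-seq, in which DNA bound by a protein is brought down from chromatin with an antibody and sequenced. Limb buds of Swiss Webster mouse embryos at E11.5, with 40 to 44 somites, were used, and the labels give no mutant allele or treatment for any sample. There were 4 HDAC1 ChIP samples, made with Abcam antibody ab7028, and 3 input samples without antibody. Forelimb and hindlimb buds of 3 litters were pooled per sample according to the labels, so mesenchyme, ectoderm and both limb types are mixed. All ChIP samples contributed to 1 list of peak coordinates. The deposited list used here gives coordinates only, and fold changes and false discovery rates that the study lists per peak elsewhere were not used here. It has no value for a sample, so no value below has a replicate error, no test between groups was possible, and the depth behind a peak is not known from the list. The position of a peak in the list was read as its rank, with rank 1 the best. In pooled tissue, few cells carrying HDAC1 at a gene and little HDAC1 per cell cannot be told apart.

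HDAC1 is a histone deacetylase that removes acetyl groups from histones as part of several corepressor complexes, and it is found at active as well as silent genes. In the limb bud, Wnt7a is secreted by dorsal ectoderm and induces Lmx1b in the mesenchyme beneath, whereas En1 is made in ventral ectoderm and keeps Wnt7a out of it. Lmx1b, Lhx2 and Lhx9 encode LIM homeodomain transcription factors that act with the cofactor Ldb1, and Lhx2 and Lhx9 link ridge FGF signals to growth of the mesenchyme. Sp6, Sp8 and Trp63 encode transcription factors that the ectoderm needs to form and maintain the ridge.

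Promoter sequences are printed first, because some of these genes' promoters lay inside a peak and others did not, at times within 1 gene. They are the 250 bases upstream of a RefSeq start (GRCm38.p6), written 5′ to 3′ on the strand of the gene, and capitals mark the GC box GGGCGG or its reverse complement CCGCCC, with overlapping copies counted. RefSeq promoter entries matched 7 of the 9 genes. The Lmx1b promoter and the Wnt7a promoter were covered over 100% of their bases, by the peaks of rank 60 and 757. The upstream Lhx2 promoter and the first Sp8 promoter were covered over 0% of theirs, with the closest peak 8669 bp and 1521 bp from the start. A downstream Lhx2 promoter, not printed, was covered over 100%, by the peak of rank 447. It overlaps an exon of its gene, as does the printed Wnt7a promoter.
Lmx1b promoter, chr2:33641099-33641348, minus strand: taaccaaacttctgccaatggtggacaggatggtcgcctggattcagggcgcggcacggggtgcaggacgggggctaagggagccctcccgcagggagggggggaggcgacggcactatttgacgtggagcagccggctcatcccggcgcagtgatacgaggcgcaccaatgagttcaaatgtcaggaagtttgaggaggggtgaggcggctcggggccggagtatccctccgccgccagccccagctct
Wnt7a promoter, chr6:91411354-91411603, minus strand: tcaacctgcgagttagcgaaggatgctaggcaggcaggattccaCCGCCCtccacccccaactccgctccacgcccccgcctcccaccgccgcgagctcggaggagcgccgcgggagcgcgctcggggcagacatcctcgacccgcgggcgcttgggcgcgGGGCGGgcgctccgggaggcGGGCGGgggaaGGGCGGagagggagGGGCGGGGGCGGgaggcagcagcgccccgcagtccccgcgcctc
Lhx2 upstream promoter, chr2:38339031-38339280, plus strand: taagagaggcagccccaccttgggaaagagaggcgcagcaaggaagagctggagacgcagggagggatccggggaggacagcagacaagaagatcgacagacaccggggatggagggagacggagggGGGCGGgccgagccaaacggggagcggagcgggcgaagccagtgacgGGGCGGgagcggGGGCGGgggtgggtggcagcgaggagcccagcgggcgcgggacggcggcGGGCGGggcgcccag
Sp8 first promoter, chr12:118846079-118846328, plus strand: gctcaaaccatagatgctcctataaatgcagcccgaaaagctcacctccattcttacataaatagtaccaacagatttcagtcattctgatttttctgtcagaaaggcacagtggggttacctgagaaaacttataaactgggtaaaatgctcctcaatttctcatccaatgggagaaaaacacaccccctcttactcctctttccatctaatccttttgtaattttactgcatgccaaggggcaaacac

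Presence of a GC box did not follow coverage in these sequences. The Wnt7a promoter held 6 GC boxes and the upstream Lhx2 promoter 4, whereas the Lmx1b promoter and the first Sp8 promoter held 0. Over all 32851 RefSeq promoters of this length, 32.7% held at least 1 GC box. The first Sp8 promoter also held 2 copies of TATAAA, which was found on either strand in 12.4% of all promoters, and had a GC content of 40.8%. GC content was 65.2% in the Lmx1b promoter, 72.8% in the upstream Lhx2 promoter and 77.6% in the Wnt7a promoter.

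Short peaks away from the promoters differed in base composition, and examples from Lmx1b, Sp8, En1 and Trp63 are shown for that reason. Capitals here mark CG dinucleotides, the target of DNA methylation in mammals, which are dense in CpG islands and scarce elsewhere. Sequences are from GRCm38 and are written 5′ to 3′ on the strand of the gene.
Lmx1b distal intron peak, chr2:33594700-33594999: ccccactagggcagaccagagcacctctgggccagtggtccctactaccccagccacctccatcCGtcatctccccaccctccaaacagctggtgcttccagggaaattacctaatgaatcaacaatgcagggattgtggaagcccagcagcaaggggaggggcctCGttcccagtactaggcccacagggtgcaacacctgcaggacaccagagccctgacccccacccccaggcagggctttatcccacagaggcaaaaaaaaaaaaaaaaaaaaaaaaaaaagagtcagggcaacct
Lmx1b downstream peak, chr2:33544250-33544549: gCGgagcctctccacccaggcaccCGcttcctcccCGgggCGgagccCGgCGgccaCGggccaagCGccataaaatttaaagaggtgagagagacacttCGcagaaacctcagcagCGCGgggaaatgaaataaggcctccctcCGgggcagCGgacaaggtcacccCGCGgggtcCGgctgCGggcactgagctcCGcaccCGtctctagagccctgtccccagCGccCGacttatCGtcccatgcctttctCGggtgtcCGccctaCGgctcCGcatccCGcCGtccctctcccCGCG
Lmx1b second downstream peak, chr2:33543900-33544149: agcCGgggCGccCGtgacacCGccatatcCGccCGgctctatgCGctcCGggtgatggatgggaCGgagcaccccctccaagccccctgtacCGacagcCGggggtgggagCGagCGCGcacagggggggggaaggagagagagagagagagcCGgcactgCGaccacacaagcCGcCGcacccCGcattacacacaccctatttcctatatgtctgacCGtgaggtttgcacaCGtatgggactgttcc
Sp8 far upstream peak, chr12:118836900-118837149: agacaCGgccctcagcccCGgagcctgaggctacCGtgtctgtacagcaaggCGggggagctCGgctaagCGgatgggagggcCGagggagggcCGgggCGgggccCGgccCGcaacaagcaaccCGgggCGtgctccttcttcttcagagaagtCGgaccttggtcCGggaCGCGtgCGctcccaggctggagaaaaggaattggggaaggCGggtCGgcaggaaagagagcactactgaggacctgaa
Sp8 near upstream peak, chr12:118842850-118843099: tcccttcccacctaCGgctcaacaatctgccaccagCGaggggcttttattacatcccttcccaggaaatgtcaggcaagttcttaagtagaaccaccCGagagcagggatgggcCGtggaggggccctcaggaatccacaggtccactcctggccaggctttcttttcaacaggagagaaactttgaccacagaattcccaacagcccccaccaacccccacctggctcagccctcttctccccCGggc
En1 intron peak, chr1:120605400-120605599: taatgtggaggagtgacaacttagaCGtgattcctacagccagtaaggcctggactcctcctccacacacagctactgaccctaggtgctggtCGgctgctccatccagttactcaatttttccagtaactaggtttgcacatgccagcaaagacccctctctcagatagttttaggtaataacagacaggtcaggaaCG
Trp63 peak, chr16:25865200-25865349: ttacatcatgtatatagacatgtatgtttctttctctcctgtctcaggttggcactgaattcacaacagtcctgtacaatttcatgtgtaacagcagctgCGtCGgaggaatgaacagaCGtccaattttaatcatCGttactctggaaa

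The number of CG dinucleotides was compared with the median over all listed peaks of the same length. The distal Lmx1b intron peak held 2 against a median of 17 for 300 bp peaks, and 94.5% of such peaks held more. Both 300 bp intron peaks nearer the 5′ end, of rank 10163 and 12947 and not printed, held 3, and 89.0% of such peaks held more. The downstream Lmx1b peaks were rich in CG by the same measure, with 30 against 17 and 21 against 11, but they lay 95962 bp and 96362 bp from the Lmx1b TSS and nearer to that of Zbtb43. Of the upstream Sp8 peaks, the far one held 20 and the near one 5, against a median of 11. The En1 intron peak held 3 against 6 and the Trp63 peak 4 against 3. The short peaks inside the Lmx1b gene body were thus below the median, and the Sp8 peaks lay on both sides of it.

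HDAC1 peaks were found in the windows of 9 of 9 genes, where 59.3% of all protein-coding genes had one. The own promoter was taken as the 2 kb before and the 1 kb after the GENCODE transcription start site (TSS) of a protein-coding transcript. It was touched by a peak in 7 of 9, the exceptions being Sp8 and Trp63, against a background of 43.9%. For Sp8 this depends on the GENCODE start, as described below. A peak among the first 3836 of the list, called a top-ranked peak here, lay in the windows of 6 of 9 genes, against 26.9%. At Sp6 that peak lay at the shared promoter of its neighbours Lrrc46 and Mrpl10. Counting only peaks whose nearest TSS was that of the gene left 5 of 9, for which no background is given. At least 10% of the window was covered by peaks at 3 of 9 genes, against 0.898%, and these were Lmx1b, Lhx2 and Lhx9.

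**Figure D1:**
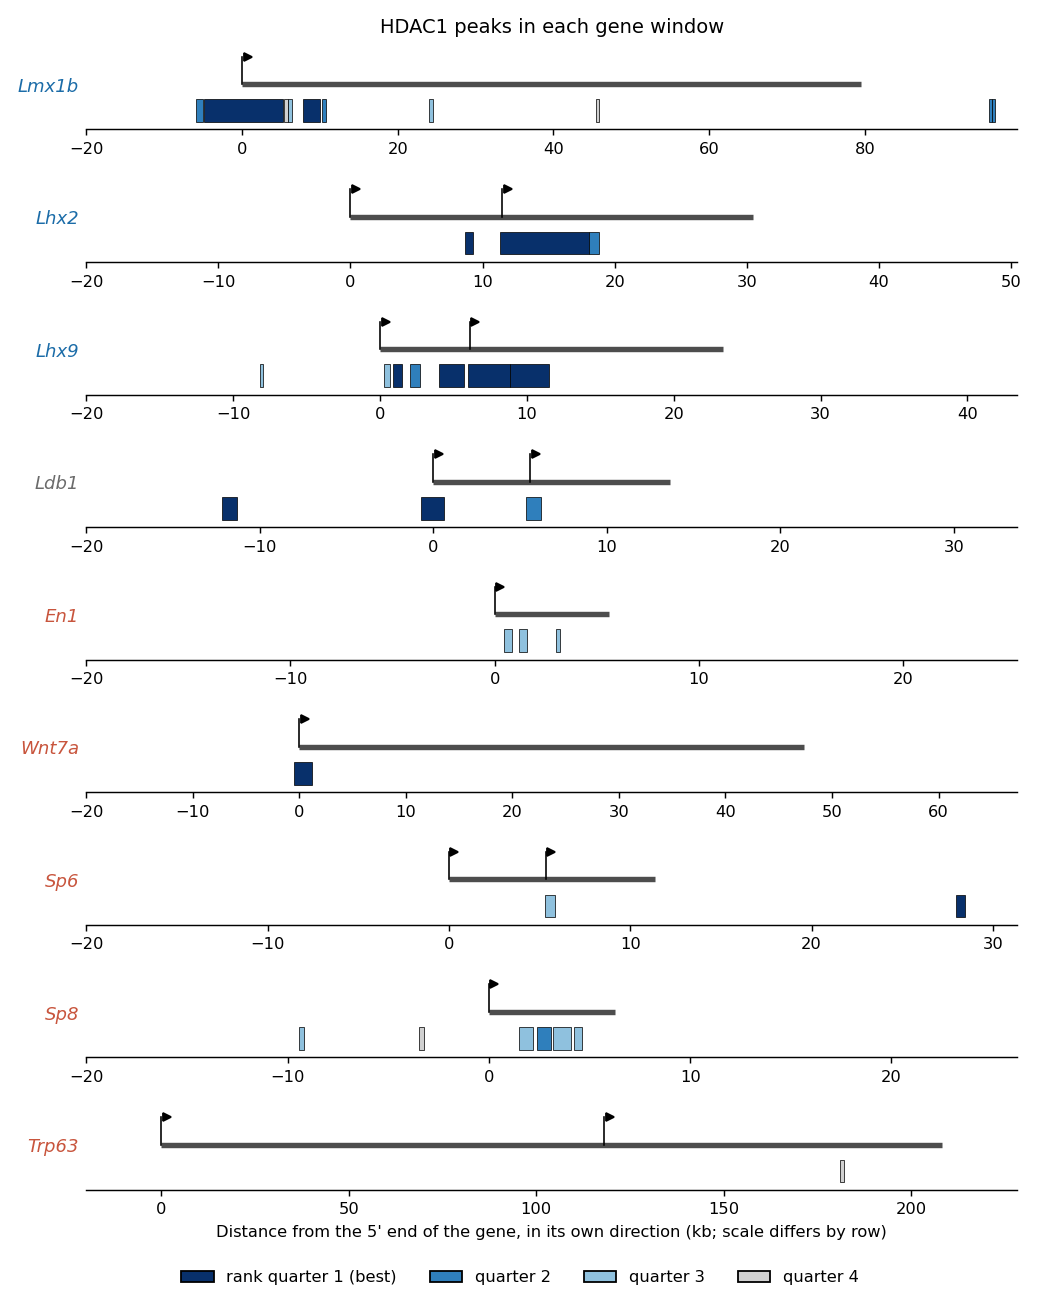
HDAC1 peaks in the window of each gene. Horizontal axes give the distance from the 5′ end of the gene in kb, in the direction of transcription, with a different scale in each row; grey bars are gene bodies, arrows are protein-coding promoters, boxes are peaks shaded by which of 4 equal blocks of the ranked list they fall in, and the narrowest boxes are widened to stay visible. Gene names are blue for mesenchymal, grey for the cofactor and red for ectodermal genes. Wide dark boxes lie over a promoter of each of Lmx1b, Lhx2 and Lhx9, and the only Trp63 box lies 63284 bp from its nearest promoter.

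Lmx1b, the dorsal determinant of limb mesenchyme, had the most peaks of the 9 genes and the most covered sequence. Its window on chromosome 2 (gene body chr2:33560965-33640511, minus strand) held 10 peaks that covered 15450 bp, or 12.9% of 119547 bp. Of all protein-coding genes, 99.6% had fewer peaks and 99.6% a lower share covered. The longest peak, chr2:33635250-33645399, spanned 10150 bp, ranked 60 and stood at position 3 by length in the whole list. It ran from -4888 to 5261 bp relative to the 5′ end of Lmx1b and took in exons 1 and 2. The divergent noncoding gene C130021I20Rik lies under the same peak, and since a peak has no strand, binding at either gene cannot be told apart.

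Around this long peak, 3 further peaks lay no more than 1000 bp from the next and completed a run of 12250 bp, of which 95.1% was inside peaks. Those flanking peaks ranked far behind the long peak, at 6658 on the upstream side and 10163 and 12947 on the intron side. Another intron peak of 2100 bp (chr2:33630550-33632649) ranked 1910, and the 400 bp peak next to it ranked 3846. Deeper in the gene body, peaks at 24012 bp and 45512 bp from the 5′ end ranked 8206 and 13274. The remaining 2 peaks lay beyond the 3′ end, ranked 4264 and 7644, and were nearer to the TSS of Zbtb43 than to that of Lmx1b. Without them Lmx1b had 8 peaks covering 12.5% of its window.

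Lhx2, which with Lhx9 relays ridge signals to the mesenchyme, had only 3 peaks but a covered length of 8050 bp, or 11.4% of its window. Fewer peaks were present at 83.9% of all genes, whereas a lower share was covered at 99.4%. The main peak, chr2:38350600-38357299, was 6700 bp long, ranked 447 and stood at position 13 by length. It covered the TSS of transcript Lhx2-201 and exons 1 to 3 of that transcript. A peak of 750 bp followed after 50 bp and ranked 5601, so that 99.3% of a stretch of 7500 bp was bound. The third peak (chr2:38347950-38348549) lay 2210 bp upstream of the Lhx2-201 start and ranked 2822. The upstream start, used by Lhx2-203, had no peak in its promoter interval.

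Lhx9 carried 7 peaks that covered 9050 bp, 14.3% of its window and the highest share among the 9 genes. A lower share was found at 99.7% of protein-coding genes. Both of its promoter regions were bound. The downstream one, shared by Lhx9-201 and Lhx9-204, lay in a peak of 2850 bp that ranked 87 (chr1:138839750-138842599). The upstream one, used by Lhx9-202, Lhx9-203 and Lhx9-205, had a start inside a 600 bp peak of rank 2010 and was also touched by a 400 bp peak of rank 8816. Further peaks of 1700 bp and 2650 bp on either side of the rank 87 peak ranked 2346 and 2052, and the 3 together occupied 96.0% of 7500 bp. A 650 bp intron peak ranked 5565. The last peak, of 200 bp and rank 9853, lay at the start of the neighbouring gene 2310009B15Rik.

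Ldb1, the adaptor that binds LIM domains, had 3 peaks covering 3050 bp, or 5.69% of its window on chromosome 19. A 1300 bp peak of rank 2849 (chr19:46044600-46045899) covered its main promoter, and a 900 bp peak of rank 6545 covered an internal promoter. The best ranked peak in its window, at 389, lay at the promoter of the neighbour Pprc1, 11336 bp from the nearest Ldb1 start. Its rank therefore does not describe an Ldb1 promoter.

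**Figure D2:**
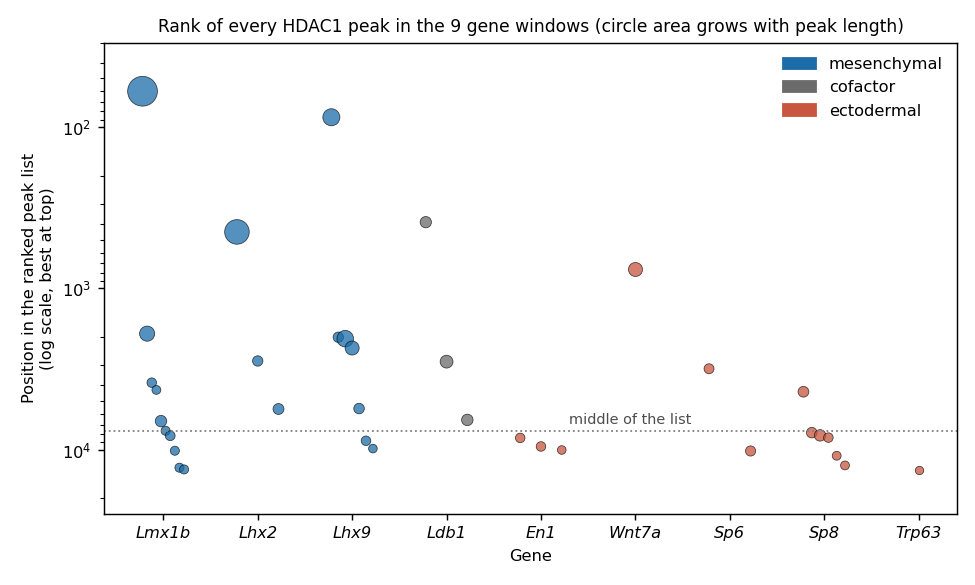
Rank of each of the 36 HDAC1 peaks, by gene. The vertical axis is the position in the ranked list on a log scale with the best rank at the top, each circle is 1 peak, circle area grows with peak length, colours are the 3 gene sets, and the dotted line is the middle of the list. Lmx1b and Lhx9 reach ranks 60 and 87, while the peaks of En1 and Trp63 lie below the middle.

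Wnt7a, the dorsal ectodermal signal, had a single peak, and it was the best ranked peak of any ectodermal gene. The peak (chr6:91410150-91411849) was 1700 bp long, ranked 757 and ran from -486 to 1213 bp relative to the 5′ end, over exon 1. It covered 1.95% of the window, a higher share than at 78.9% of genes. No other part of the 47383 bp gene body or its flanks held a listed peak.

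En1, the ventral counterpart of Wnt7a in the ectoderm, had 3 short peaks that covered 1000 bp, or 2.19% of its window on chromosome 1. The TSS itself was outside the peaks. The closest peak began 432 bp downstream in exon 1 (chr1:120602850-120603249), was 400 bp long and ranked 8465, with a GC content of 73.2%. A second 400 bp peak in the coding part of exon 1 ranked 9563, and a 200 bp intron peak ranked 10056. All 3 peaks of En1 stood below the middle of the list.

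Sp6 held 2 peaks covering 1050 bp, or 2.05% of its window on chromosome 11. The 550 bp peak chr11:97018700-97019249 ranked 10198 and covered the internal start used by Sp6-202. The upstream start of Sp6-201 lay 5306 bp from a peak. The better ranked peak of the window, at 3153, lay 22617 bp from the nearest Sp6 start, at the shared promoter of Lrrc46 and Mrpl10.

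Sp8, the close relative of Sp6 in ridge formation, was the most densely occupied ectodermal gene, with 6 peaks covering 3150 bp or 6.81% of its window on chromosome 12. Per 100 kb of window it had 13.0 peaks, the highest density of the 9 genes, followed by Lhx9 at 11.0 and Lmx1b at 8.36. At Sp8, 4 peaks formed a run of 3100 bp over exon 3, with ranks of 4378, 7852, 8161 and 8425. The annotated GENCODE start lay 1521 bp from this run. RefSeq gives starts further downstream as well, 617 bp and 291 bp before the nearest peak. These starts were outside the peak too, but it lay within the 1 kb after each of them. By the RefSeq starts Sp8 would therefore count as having a peak at its own promoter. Both upstream peaks, shown above, were 250 bp long and ranked 10916 and 12533.

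Trp63, which encodes p63, had the fewest bases in peaks and the latest best rank of the 9 genes, and shared the lowest peak number with Wnt7a. Its window of 248340 bp, the longest of the 9, held 1 peak of 150 bp that ranked 13438 and covered 0.0604% of the window. A lower covered share was found at 41.0% of genes, and 40.7% of genes had no peak in their window at all. The peak (chr16:25865200-25865349) lay in a coding exon, exon 5 of Trp63-201 and exon 7 of Trp63-202. It was 63284 bp from the promoter of the ΔN transcripts, which make the form of p63 that predominates in embryonic epidermis, and 181435 bp from the upstream promoter. Neither promoter was touched by a listed peak.

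Between the sets, the mesenchymal genes had more sequence in peaks. The median share of the window covered was 12.9% for the 3 mesenchymal genes, with a range of 11.4 to 14.3%, and 2.05% for the 5 ectodermal genes, with a range of 0.0604 to 6.81%. All protein-coding genes had a median of 0.476%. Covered lengths did not overlap, at 8050 to 15450 bp against 150 to 3150 bp. The best rank of a mesenchymal gene was between 60 and 447 and that of an ectodermal gene between 757 and 13438. Of all protein-coding genes, 26.9% had a best rank within the first 3836 and 0.898% had at least 10% of the window covered. The share of all genes that reach these covered lengths is not given here. Peak numbers did overlap, with 3 to 10 against 1 to 6, since Sp8 had more peaks than Lhx2. Median peak numbers were 7 and 2, a difference of 5, beside 1 over all genes. That difference was 3 without Lmx1b and 1 once peaks with gaps of 1000 bp or less were joined, which left 5 peaks at Lmx1b, 3 at Lhx9 and 2 at Lhx2, and 3 at Sp8.

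The separation in covered length and in best rank held in 8 of 8 alternative settings that bear on them, and that in covered share in 7 of 8. Not all of these settings could have undone it. Leaving out Lmx1b only narrows the mesenchymal range, and keeping the first 7673 peaks cannot alter the bounding best ranks of 447 and 757. Those peaks cover starts of Lhx2 and Wnt7a, so narrower windows, the nearest-TSS rule and the overlap rule cannot alter them either. Merging kept the best rank. For best rank, it was therefore mainly the windows with 50 kb on each side that could have undone the separation. Counted over the gene body alone, without flanks, Sp8 reached 42.4%, above Lhx9 at 37.8% and Lhx2 at 26.4%, and En1 at 17.9% also exceeded Lmx1b. Sp8 and En1 have short gene bodies, of 6248 bp and 5575 bp, and Lmx1b has one of 79547 bp.

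**Figure D3:**
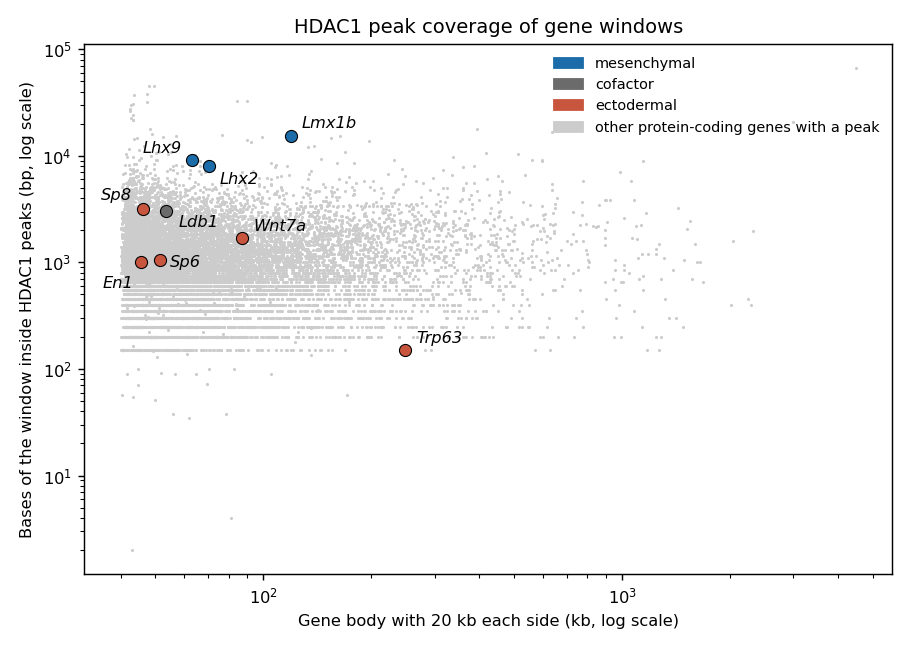
Bases inside HDAC1 peaks against window length for every protein-coding gene with a peak. The horizontal axis is the gene body with 20 kb on each side in kb, the vertical axis is the covered length in bp, and both are log scales; grey points are other genes and coloured points are the 9 genes. Lmx1b, Lhx2 and Lhx9, at 8050 bp and above, lie over the ectodermal genes, at 3150 bp and below.

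Single peaks differed in the same direction by length and rank, with wide overlap. The 20 mesenchymal peaks had a median length of 600 bp and a median rank of 4914.5, and the 13 ectodermal peaks 400 bp and 8465. Over the whole list the medians were 450 bp and 7674. With the list cut into 4 equal blocks, from the best to the worst ranks, mesenchymal peaks numbered 8, 6, 4 and 2 and ectodermal peaks 2, 1, 8 and 2. Peaks over 1000 bp made up 6 of 20 mesenchymal and 1 of 13 ectodermal peaks, against 16.0% of all listed peaks. Peaks of a gene are neighbours in 1 list and are not replicates of each other.

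**Figure D4:**
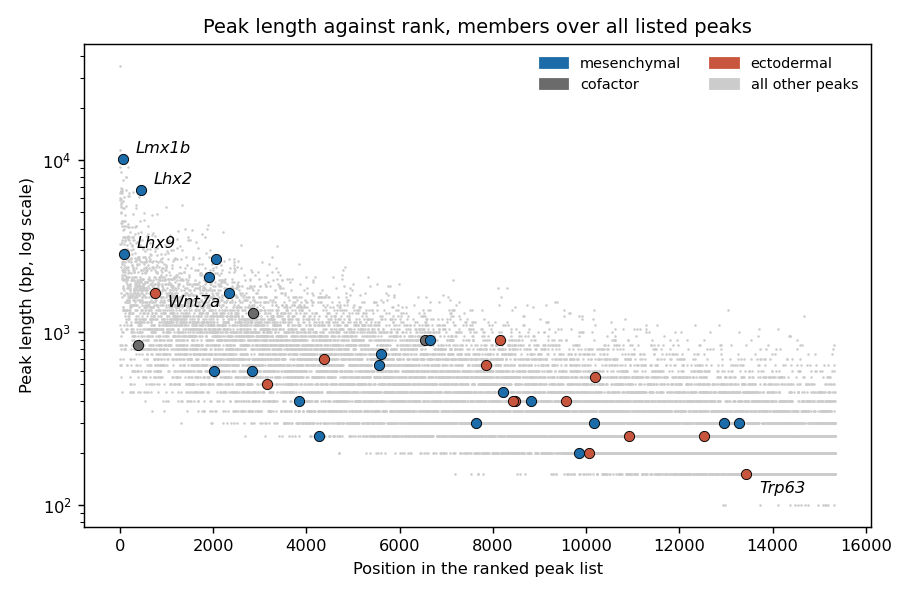
Peak length against rank for the whole list. The horizontal axis is the position in the list, the vertical axis is peak length in bp on a log scale, grey points are the other listed peaks and coloured points the 36 peaks of the 9 genes. Long peaks stand early in the list, where Lmx1b, Lhx2 and Lhx9 have peaks of 10150, 6700 and 2850 bp, and the 150 bp Trp63 peak stands near its end.

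The places of the peaks within the genes were counted as well. Introns away from the own promoter held 9 of 20 mesenchymal peaks and 1 of 13 ectodermal peaks, the latter being the En1 intron peak. Among all listed peaks, 12.3% lay in an intron of a protein-coding gene away from any protein-coding promoter. Exons of the gene were touched by 5 of 20 and 9 of 13, and exon 3 of Sp8 alone accounted for 4 of the 9. An exon of any protein-coding gene was touched by 61.6% of all listed peaks. Of the protein-coding promoters, with nearby starts grouped, 8 of 14 had a TSS inside a peak, against 26.7% over all genes. They were 4 of 5 mesenchymal, 2 of 2 Ldb1 and 2 of 7 ectodermal promoters. Gaps between adjacent peaks were measured too. A gap of 1000 bp or less separated 14 of 27 adjacent pairs within a gene (51.9%), against 20.6% of adjacent pairs in the whole list. Pairs in the whole list are not limited to the window of 1 gene, so these shares are not like for like. Whether peaks stand closer together at these genes was not tested.

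In base composition, the mesenchymal peaks were poorer in CpG than the ectodermal ones. Median GC content was 56.0% in mesenchymal peaks, 61.0% in ectodermal peaks and 62.9% in all listed peaks. The median ratio of observed to expected CpG was 0.468, 0.729 and 0.758. A GC box lay in the central 300 bases of 5 of 18 mesenchymal and 5 of 9 ectodermal peaks of at least 300 bp, against 55.9% of all such peaks. The homeodomain core TAATTA is bound by many LIM homeodomain proteins. It lay in the central 300 bases of 0 of these 27 peaks and 0 of the 3 Ldb1 peaks, against 2.93% of all. The GLI core GACCACCC was likewise in the central bases of 0 of them, against 1.38%. Both strands were searched, but the rest of the longer peaks was not, and these are letter matches rather than measured binding sites.

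The relatives and partners of the 9 genes were then counted without the genes themselves, by a peak at the own promoter, for which the background is again 43.9%. Of 9 other LIM homeodomain genes, 6 had one, but a top-ranked peak was present in the window of only 1. Their best promoter peaks ranked 3115 at Lhx3, 4674 at Isl1 and 7893 at Lhx1, and Lhx5 had no peak. The LIM cofactors, partners of Ldb1 and competitors for it, had a promoter peak at 7 of 9, led by the single-stranded DNA-binding protein genes Ssbp3 at rank 59, Ssbp4 at 328 and Ssbp2 at 625, while Lmo3 had no peak. Other Sp family genes had one at 6 of 7, with Sp3 at 608, Sp1 at 4508 and Sp4 at 6830. Paralogs of the remaining members had one at 4 of 4, with Wnt7b at 279, Trp53 at 935, En2 at 3894 and Trp73 at 14509.

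Lists for the tissues were read in the same way. Further genes of the ridge had a promoter peak at 9 of 12, with the Wnt agonist gene Rspo2 at rank 579, Bmp2 at 844 and the Notch ligand gene Jag2 at 2178. General ectoderm genes had one at 5 of 14, with the transcription factor genes Tfap2a at 691, Grhl2 at 4177 and Tfap2b at 4302. The epithelial genes Krt5, Krt14, Krt8, Krt18, Perp and Epcam had no peak in their windows. Limb mesenchyme identity genes had a promoter peak at 8 of 8, with Hand2 at rank 16, Pitx1 at 73 and Prrx1 at 120. Genes of other tissues had one at 3 of 12, at Pax4, Olig2 and Actn3, with no peak at Alb, Afp, Neurod1 and Cdx2. The median share of the window covered was 13.6% for the limb mesenchyme list, 4.45% for the paralogs, 3.37% for the ridge genes and 1.60% for the other LIM homeodomain genes. It was 1.29% for the other Sp genes, 1.25% for the LIM cofactors, 0.782% for genes of other tissues and 0.0643% for the ectoderm genes. Single genes of the low lists reached the range of Lmx1b, Lhx2 and Lhx9 or came near it. They included Tfap2a at 15.0%, the ridge gene Msx2 at 10.8% and the LIM cofactor gene Ssbp4 at 10.3%, all singled out after their values were seen. Peaks do not measure expression, so the tissue of origin was not tested by these counts.

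**Figure D5:**
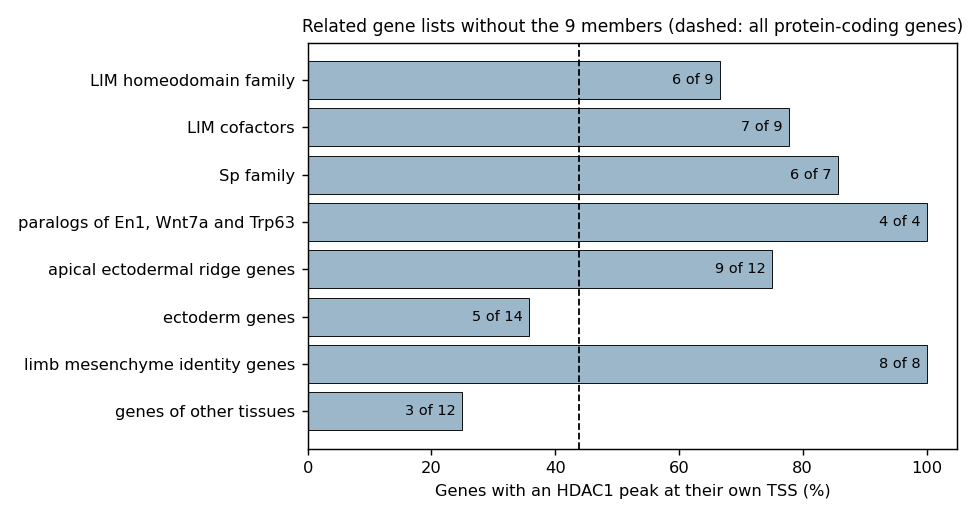
Share of genes with an HDAC1 peak at their own TSS in lists of related genes, without the 9 genes. The horizontal axis is the share in percent, bars are lists with the number of genes printed in each, and the dashed line is the 43.9% of all protein-coding genes. The limb mesenchyme identity list stands at 8 of 8 and the ectoderm list at 5 of 14.

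The genes most like each of the 9 were found by the distance between log2 values of peak number, covered length and best rank, over the 13009 genes with a peak in this 1 list. Nearest to Lmx1b were Tbx15, with 11 peaks and a best rank of 84, and its neighbour Wars2, at distances of 0.51 and 0.57. Lhx2 was nearest to Itgb7 and Ccnd2 at 0.43 and 0.51, and Lhx9, apart from the neighbour 2310009B15Rik that shares its 7 peaks, to Pitx1 at 0.42. Ldb1 was nearest to Rrp12 and Gtpbp3. Distances were below 0.1 for the ectodermal genes, whose nearest genes included Ascc3 for En1, Gpc1 and Srpk2 for Wnt7a, Tulp1 and Slc25a30 for Sp6, Gm49450 and Tuba1b for Sp8, and Gprasp2 and Ftsj1 for Trp63.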

How the data were processed

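The authors called HDAC1 peaks with CisGenome against the input samples at a false discovery rate below 0.05, pooling the ChIP samples. The submitters' processing notes name Bowtie2 2.2.5 and the mm10 build. The deposited file holds only chromosome, start and end of each peak, and the order of its rows was read as rank. Coordinates were taken as 1-based with both ends included and were checked against GRCm38, where 0 of 15347 peaks passed a chromosome end.

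Gene bodies came from the full GENCODE annotation of GRCm38, and exons and TSSs from its basic set. Promoter sequences came from RefSeq (GRCm38.p6), where 12 of 12 member promoters equalled the genome sequence. Windows added 20 kb to each side of the gene body. No test was run, because no value per sample exists. Counts were set beside those over all protein-coding genes. The code for overlap, covered length and nearest TSS was tested on simulated data. Python 3.11.15, pandas 2.3.3, numpy 2.4.6, pysam 0.24.0 and matplotlib 3.10.9 were used.

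All 9 genes were named, with neighbours whose TSS a member peak touched, the up to 3 best ranked and all peakless genes of each list, and the 2 nearest genes by likeness. Some genes that this rule names are not reported here. Members and lists were chosen with earlier results of these data known. Alternatives changed the window, the part of the list used, the overlap, the TSS definition, the merging of peaks and the inclusion of Lmx1b.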

Additional observations from a re-analysis of the deposited data

How the results depend on the processing

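The counts and differences were recomputed under 11 alternatives, giving 41 values, of which 35 stayed within the margin set for them, 6 moved and 0 reversed direction. That margin counted 28 peaks over gene bodies alone as unchanged from 36. Requiring 50% of a peak to lie inside the window altered none of the values, so the tally is a weak measure of stability. The difference in median share covered, mesenchymal minus ectodermal, was 10.9 percentage points, and it was 21.6 over gene bodies alone and 6.18 with 50 kb on each side. Window length changes this value by construction. Among the first 7673 peaks of the list, 20 of the 36 peaks were left, En1 and Trp63 had none, and 7 of 9 genes kept a peak. Merging peaks no more than 1000 bp apart left 22 peaks and reduced the difference in median peak number from 5 to 1, as the runs at Lmx1b, Lhx2 and Lhx9 became single peaks. Without Lmx1b that difference was 3. Counting only peaks whose nearest protein-coding TSS was that of the gene gave 31 peaks and 5 genes with a peak among the first 3836. No paired analysis was possible because the list pools all ChIP samples, and for the same reason no replicate could be left out. Sites below the peak threshold are not listed, so a gene without a peak is not shown to lack HDAC1.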
